A study of Mus musculus with 4 samples.

Results

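Hemoglobin-rich cells were the barcodes of trabecular bone in which the adult globin genes Hba-a1, Hba-a2, Hbb-bs and Hbb-bt together gave at least 10% of the unique molecular identifiers (UMIs, counted RNA molecules). A barcode also needed at least 500 UMIs, at least 200 detected genes and no more than 10% of UMIs from mitochondrial genes. The rule found 909 such cells among the 8765 trabecular barcodes that passed these filters, and 23216 barcodes passed in the whole series. Of the 909 cells, 302 came from the control library and 607 from the glucocorticoid (GC) library. The cells were thus selected on the measured UMIs of these globin genes, and every value that follows from those UMIs is a description and was not tested.

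The mice were 20-week-old C57BL/6J males that carried a subcutaneous pellet, either placebo (control) or slow-release prednisolone at 6.25 mg/kg/d (GC), and were sampled at week 2. Trabecular bone was flushed, crushed and enzymatically digested, and the pooled fractions were run on a 10x Genomics droplet platform, as was fracture callus in another pair of libraries. The labels give the pellet for all libraries, while the study's text describes daily injection of prednisolone for fractured mice, so the tissues may also differ in how the drug was given. Each condition was a single library, and the number of mice behind a library is not given in the sources used here. Differences between control and GC cells therefore had no replicate error and were given no p-value, and every 95% interval covers counting error only.

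Erythroblasts are the nucleated precursors of red blood cells. They proliferate early, then leave the cell cycle, fill with hemoglobin, clear their organelles and expel the nucleus to become reticulocytes. Hemoglobin joins 2 kinds of globin chain, α and β, with heme, whose synthesis starts with Alas2 in this lineage and needs iron brought in by the transferrin receptor. Factors such as Gata1 and Klf1 bind short motifs before the globin and heme genes, and glucocorticoids are known to prolong the proliferation of early erythroid progenitors under stress.

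The promoters of the 4 globin genes are shown because these genes lie in separate clusters but were read together as 1 hemoglobin share, and that of Alas2, which is not in that share, because it was used to check the label of the cells. Each sequence is the 130 bases before the annotated start, read 5′ to 3′ along the gene from the RefSeq promoter table of build GRCm38.p6. The starts are those of RefSeq, and the GENCODE records of all 5 genes begin further upstream, so the Hba-a1 and Hbb-bs windows lie wholly and the other windows partly inside the GENCODE genes. Capitals mark matches on either strand to CACCC, the letters bound by Klf1-type factors, to CCAAT, bound by NF-Y, to GATAA, bound by GATA factors, and to TATAA, bound by the TATA-binding protein.
Hba-a1, chr11:32283542-32283671, plus strand: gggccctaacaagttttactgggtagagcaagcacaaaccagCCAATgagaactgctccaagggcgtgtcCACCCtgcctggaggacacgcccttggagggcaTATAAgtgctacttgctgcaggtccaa
Hba-a2, chr11:32296362-32296491, plus strand: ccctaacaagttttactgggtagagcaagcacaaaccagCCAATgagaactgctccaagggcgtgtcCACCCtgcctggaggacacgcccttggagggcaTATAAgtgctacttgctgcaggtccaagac
Hbb-bs, chr7:103827929-103828058, minus strand: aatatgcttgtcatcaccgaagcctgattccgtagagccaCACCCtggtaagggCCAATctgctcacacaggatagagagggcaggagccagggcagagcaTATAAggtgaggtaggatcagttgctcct
Hbb-bt, chr7:103813924-103814053, minus strand: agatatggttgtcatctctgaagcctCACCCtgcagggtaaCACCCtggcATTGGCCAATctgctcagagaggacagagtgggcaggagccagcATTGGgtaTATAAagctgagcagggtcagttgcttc
Alas2, chrX:150547287-150547416, plus strand: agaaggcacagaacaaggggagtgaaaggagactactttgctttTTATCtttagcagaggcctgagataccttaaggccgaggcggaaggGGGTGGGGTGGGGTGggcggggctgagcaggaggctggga
All 4 globin windows held the CACCC motif, the CCAAT motif and the TATAA motif, a combination found in 0.825% of the 32851 promoter windows of the same length. Taken singly, CACCC was in 33.7% of windows, CCAAT in 22.4%, TATAA in 12.7% and GATAA in 11.4%. The Alas2 window held GATAA read on the opposite strand and 3 adjacent matches to CACCC, and neither CCAAT nor TATAA. Hba-a1 and Hba-a2 shared an unbroken run of 127 of the 130 bases, whereas the longest run shared by Hbb-bs and Hbb-bt was 14 bases. A match to these letters is a description and does not show that a factor was bound.

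Before the results, other cell types in the same droplets were counted. A barcode was called mixed where markers of neutrophils exceeded 10% of its UMIs outside the 4 globin genes (non-globin UMIs), those of monocytes and macrophages 1%, or those of another cell type 0.5%. These limits were chosen after the data were seen. In control, 24 of 302 cells were mixed (7.95%, 95% Clopper-Pearson interval 5.16 to 11.6), and in GC 75 of 607 were (12.4%, 9.84 to 15.2). Of the mixed barcodes, 20 in control and 68 in GC passed the neutrophil limit. They held 20.8% of the non-globin UMIs of the control cells and 42.6% of those of the GC cells. Many levels over all cells are therefore given with and without them. Other levels over all cells include them, and gene levels followed through the hemoglobin bins leave them out.

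Summed over the 14 neutrophil markers, the level was 64625 CPM in control (CPM, the UMIs of a gene divided by all non-globin UMIs and scaled to 1e+06) and 138846 in GC. Without the mixed barcodes these sums were 12035 and 13814 CPM, against 255077 and 220564 CPM in the barcodes under 10% hemoglobin. All 14 markers had UMIs, and S100a8, a calcium-binding protein of neutrophils, was the most abundant at 25497 and 53830 CPM. The 12 monocyte and macrophage markers summed to 2236 and 3429 CPM, led by the lysozyme gene Lyz2 at 1412 and 2027 CPM. The complement genes C1qa and C1qc and the macrophage gene Cd5l, which mark resident macrophages, were at 0 in both libraries. Markers of B cells summed to 232 CPM in control and 28 CPM in GC, those of T and NK cells to 26 and 281 CPM, and those of mast cells and basophils to 11 and 281 CPM. Megakaryocyte and platelet markers summed to 35 and 28 CPM and stromal and bone markers to 11 and 15 CPM. Without mixed barcodes the monocyte and macrophage sums were 640 CPM in control and 705 CPM in GC, and the B cell sums 41 and 27 CPM. Those of T and NK cells were then 25 and 88 CPM, and those of mast cells and basophils 14 and 109 CPM. Megakaryocyte and platelet sums were 45 and 34 CPM and stromal and bone sums 8 and 17 CPM. The 2 trabecular libraries shared 7 passing barcodes, none of them a hemoglobin-rich cell.

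Hemoglobin-rich cells made up 7.59% of passing control barcodes (302 of 3977, interval 6.79 to 8.46) and 12.7% of passing GC barcodes (607 of 4788, interval 11.7 to 13.7). Without mixed barcodes the shares were 6.99% and 11.1%. These are counts of the rule itself in single libraries and were not tested. A further 183 control and 694 GC barcodes met every other limit and had under 200 genes, and with them the shares were 11.6% and 23.7%. With a minimum of 500 genes they were 3.97% and 4.51%, so the size of the difference changed with this limit. In fracture callus, where the GC matrix listed only barcodes of at least 500 UMIs, the same rule found 55 of 7133 control barcodes (0.771%, 0.581 to 1.002) and 70 of 7318 GC barcodes (0.957%, 0.746 to 1.21).

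Few barcodes lay near the limit of 10%. The lowest cell inside it had 10.1% hemoglobin in control and 10.5% in GC, and the highest barcodes outside it had 9.96% and 9.87%. Between 5 and 10% there were 13 control and 18 GC barcodes, and the median of all barcodes under 10% was 0.162% in control and 0.157% in GC. Barcodes of 10 to 100 UMIs, taken as a rough view of free RNA, were 16.7% hemoglobin in control and 10.9% in GC. Mitochondrial genes gave 215581 and 285497 CPM in them, against 17235 and 17503 CPM in passing barcodes under 10% hemoglobin, which were filtered on these genes. How much of the RNA in them was free was not tested. The hemoglobin-rich cells themselves held 53.0% and 51.3% of all hemoglobin UMIs of their libraries.

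The hemoglobin share had a median of 72.9% in control (quartiles 36.6 and 88.8) and 87.0% in GC (quartiles 54.2 and 90.2). With a minimum of 500 genes the medians were 38.2% and 44.5%. Cells of at least 75% hemoglobin were 46.0% of the control cells (139, interval 40.3 to 51.8) and 63.1% of the GC cells (383, interval 59.1 to 66.9). Without mixed barcodes they were 49.6% and 71.8%. Below them, control had 46 cells at 10 to 25%, 61 at 25 to 50% and 56 at 50 to 75%, and GC had 53, 79 and 92.

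The cells had a median of 6428 UMIs in control and 6127 in GC, but 1166 and 783 outside the globins, and 485.5 and 319 detected genes. Non-globin UMIs totalled 1071063 in control and 1338999 in GC, out of library totals of 41239842 and 45876714 UMIs.

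**Figure D1:**
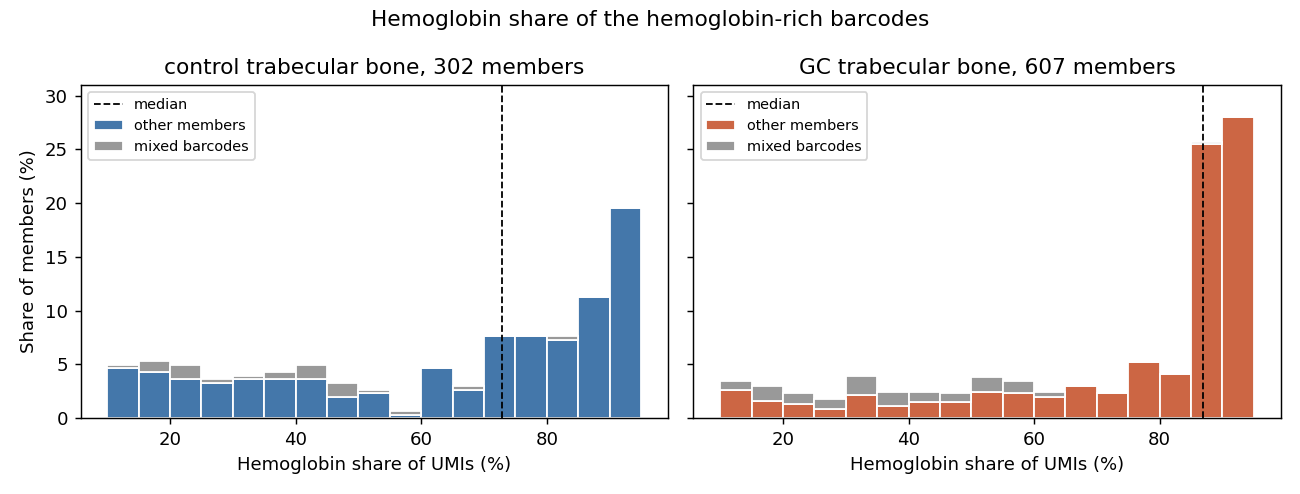
Hemoglobin share of UMIs (x axis, percent) in bins of 5 points against the percent of hemoglobin-rich cells in each bin, for 302 control cells (left) and 607 GC cells (right). Grey marks mixed barcodes and the dashed line is the median, 72.9% in control and 87.0% in GC, and the highest bins hold more of the GC cells.

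Among the globins, Hbb-bs gave 54.2% of the globin UMIs in control and 53.6% in GC. Hba-a1 gave 19.4% and 20.2%, Hba-a2 13.1% and 14.8%, and Hbb-bt 13.3% and 11.5%. Reads of Hba-a1 and Hba-a2, near-identical copies, may have been assigned to either gene, so their split is uncertain. The ratio of α to β UMIs, not corrected for transcript length, was 0.481 in control and 0.537 in GC. Per cell its median was 0.476 in control (quartiles 0.406 and 0.548) and 0.545 in GC (quartiles 0.468 and 0.606), and it was higher in GC in all 4 bins of hemoglobin share. In callus the ratio was 0.271 and 0.370, again higher in GC.

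Embryonic globins were nearly missing. Hba-x had 0 UMIs in control and 2 in GC, Hbb-y 2 and 2, Hbb-bh1 1 and 2, and Hbb-bh2 0 in both. The minor α-like gene Hbq1b had 205 UMIs in control and 294 in GC, and its near copy Hbq1a had 41 and 40. Hbq1b was higher with hemoglobin share, from 60.3 CPM at 10 to 25% to 684 CPM at 75% and over in control without mixed barcodes, and from 50.6 to 642 CPM in GC. Of the 6 minor and embryonic genes these 2 had enough UMIs to be compared, at log2 ratios of GC over control of 0.19 for Hbq1b and −0.31 for Hbq1a.

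The label of the cells was checked against Alas2 and Slc4a1, which the rule did not use. After each cell was thinned to 500 non-globin UMIs, Alas2 was detected in 82.1% of control and 86.8% of GC hemoglobin-rich cells, against 0.6% and 0.5% of barcodes under 10% hemoglobin. Slc4a1, the band 3 anion exchanger of the red cell membrane, was detected in 85.3% and 69.1%, against 0.6% and 0.5%. Thinning left out 29 control and 70 GC cells that were too shallow, and before thinning Alas2 was in 98.0% and 97.2% of cells and Slc4a1 in 94.0% and 77.8%. Of barcodes under 10% hemoglobin, 4.44% and 4.04% then had Alas2 and 4.46% and 4.28% had Slc4a1. On GRCm38, Alas2 lies on the plus strand at chrX:150547375-150570638 and Slc4a1 on the minus strand at chr11:102348824-102366203. Both genes are markers of red cell precursors and, after thinning, were near 0 over all barcodes under 10% hemoglobin. Among these were 49 control and 34 GC barcodes with UMIs of at least 3 of 8 erythroid genes. After thinning they had Alas2 in 4.08% and 8.82% and Slc4a1 in 16.3% and 20.6%. Before thinning they had Alas2 in 53.1% and 58.8% and Slc4a1 in 55.1% and 73.5%. At the highest hemoglobin shares, however, Malat1, a long noncoding RNA kept in the nucleus, was often at 0, as given below, and the cells are called hemoglobin-rich cells throughout.

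Gene levels were followed through 4 bins of hemoglobin share (10 to 25, 25 to 50, 50 to 75, and 75% and over) with mixed barcodes left out. The bins are ordered by the value that chose the cells, so the trends are descriptions.

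Heme genes differed in where they were highest. Their summed level went from 8718 CPM in the lowest bin to 31197 CPM in the highest in control, and from 7639 to 32161 CPM in GC. Alas2, the first enzyme of the pathway, had 890, 2082, 7322 and 17506 CPM in control and 788, 2389, 5127 and 20859 CPM in GC. Fech, which puts iron into heme in the last step, went from 978 to 4805 CPM in control and from 742 to 6179 CPM in GC. Tmem14c, a mitochondrial porphyrin transporter, had 1960, 2344, 374 and 80 CPM in control and 1711, 1859, 229 and 41 CPM in GC. The first and last steps, Alas2 and Fech, were thus highest where hemoglobin was, and Tmem14c was not.

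Iron genes also differed in where they were highest. Slc25a37, or mitoferrin, which carries iron into mitochondria, had 1176, 2378, 5558 and 4298 CPM in control and 1310, 3457, 6011 and 7193 CPM in GC, so it was highest at 50 to 75% in control and at 75% and over in GC. Tfrc, the transferrin receptor, peaked at 50 to 75% with 2683 and 2777 CPM and stood at 1167 and 583 CPM in the highest bin. The ferritin light chain gene Ftl1 went from 2579 to 8813 CPM in control and from 2831 to 9904 CPM in GC.

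Membrane genes also differed in where they were highest. Slc4a1 had 2503, 4829, 8198 and 6350 CPM in control and 1837, 5547, 8172 and 4795 CPM in GC, so it peaked at 50 to 75% in both. Epb41, the skeleton protein 4.1, went from 327 to 7244 CPM in control and from 308 to 8004 CPM in GC. Of the antioxidant genes, Gpx1, a glutathione peroxidase, went from 3787 to 28267 CPM in control and from 3716 to 35725 CPM in GC, and Prdx2, a peroxiredoxin abundant in red cells, from 4177 to 13248 and from 3358 to 12294 CPM. Ahsp, the α-globin chaperone, was not matched in the gene list of the files.

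Of the transcription factors, Klf1, Gata1 and Sox6 had their highest CPM in the middle bins. Klf1, an activator of β-globin, had 302, 511, 289 and 48 CPM in control and 274, 321, 174 and 37 CPM in GC. Gata1 had 121, 219, 128 and 40 CPM in control and 93, 172, 110 and 37 CPM in GC. Sox6, a repressor of embryonic globin, peaked later, at 50 to 75%, with 1090 CPM in control and 1388 CPM in GC. Epor, the erythropoietin receptor, was highest at 25 to 50% with 318 and 381 CPM, whereas Bcl2l1, the survival gene downstream of it, went from 45 to 2109 CPM in control and from 13 to 2553 CPM in GC.

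Car1, a carbonic anhydrase of early erythroid cells, had 1096, 657, 96 and 56 CPM in control and 733, 261, 16 and 52 CPM in GC. Kit, the stem cell factor receptor, was at 20 CPM or less in every bin. The 30 genes of terminal maturation and organelle clearance summed to 11475, 18684, 67273 and 120812 CPM in control and 10483, 23809, 53953 and 128262 CPM in GC. Within them Bpgm, which makes 2,3-bisphosphoglycerate in red cells, went from 136 to 19301 CPM in control and from 181 to 24275 CPM in GC. The ubiquitin ligase gene Mkrn1 went from 533 to 18786 and from 763 to 19513 CPM. Xpo7, a nuclear exportin, had 106, 330, 6306 and 5344 CPM in control and 219, 1605, 5798 and 2873 CPM in GC. Ribosomal protein genes summed to 254684, 172523, 60497 and 49886 CPM in control and 281058, 138248, 55601 and 78454 CPM in GC, so in GC they were lowest at 50 to 75%.

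The 24 S phase genes summed to 8972, 8550, 2469 and 322 CPM in control and 6969, 5301, 749 and 402 CPM in GC. The 24 G2 and M phase genes were highest at 25 to 50%, with 20946 and 18060 CPM, and still stood at 4435 and 4382 CPM in the highest bin. Pcna, the replication clamp, had 1000, 974, 278 and 24 CPM in control and 834, 657, 55 and 33 CPM in GC. In the highest bin the G2 and M sum rested on few genes, among them Ube2c, a mitotic ubiquitin-conjugating enzyme, at 2012 CPM in control and 2519 CPM in GC.

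**Figure D2:**
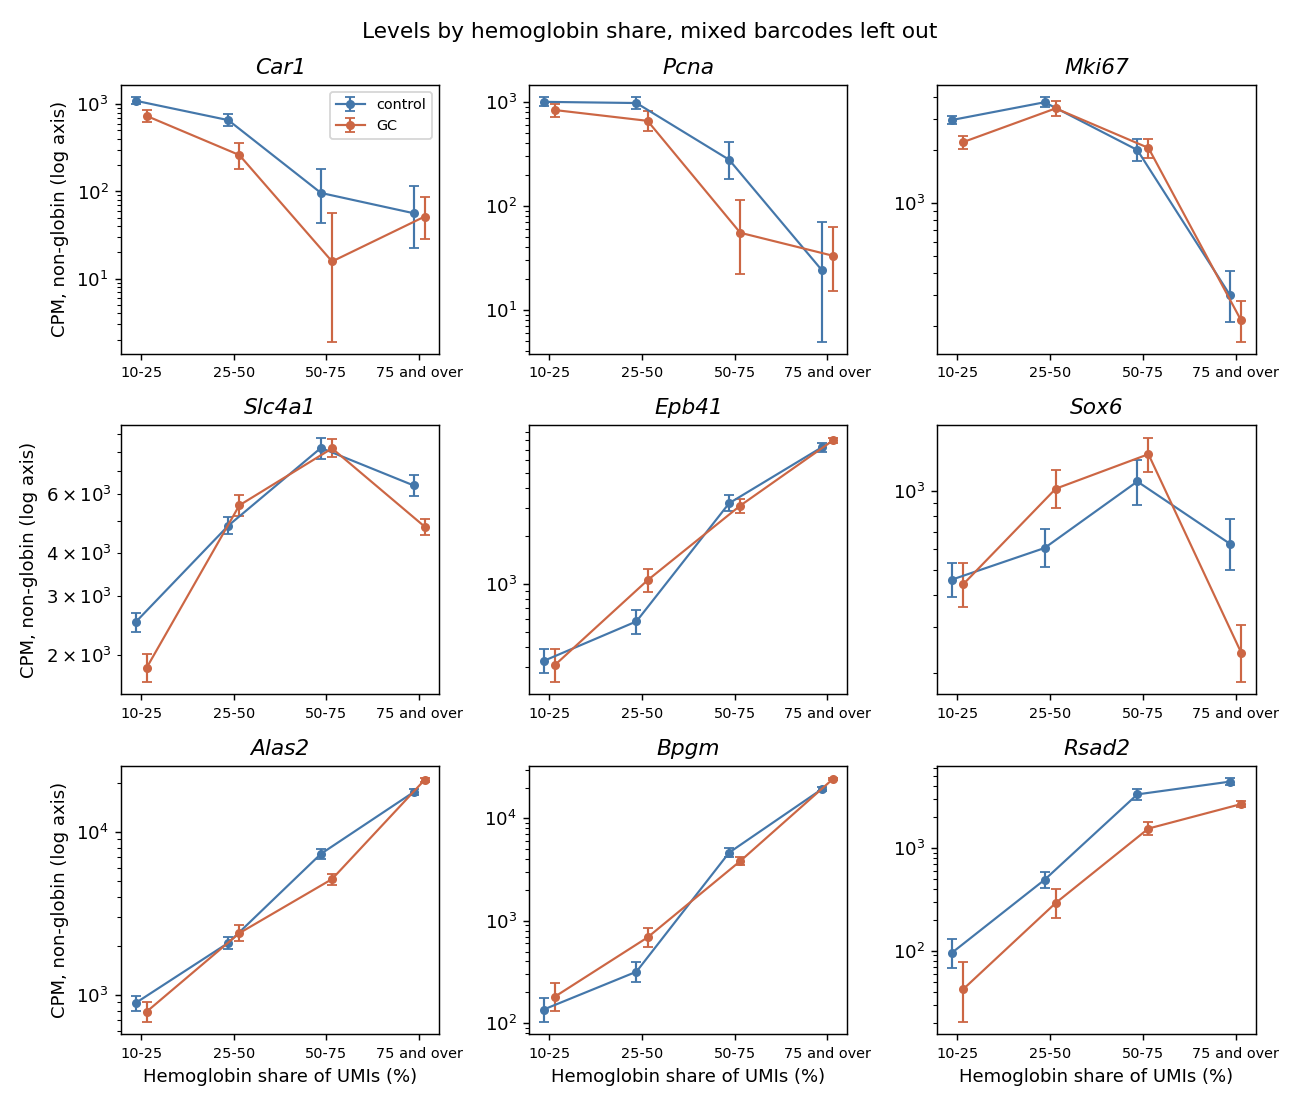
Levels of 9 genes in CPM of non-globin UMIs (log y axes, each with its own range) over 4 bins of hemoglobin share (x axis, percent), with mixed barcodes left out, in control (blue) and GC (orange). Points are sums over the cells of a bin and bars are 95% Poisson intervals, and Alas2 and Bpgm climb to 17506 and 19301 CPM in control while Car1 and Pcna drop to 56 and 24 CPM.

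A smaller share of GC than of control cells carried cell cycle RNA over all bins together. After thinning to 500 non-globin UMIs, 69.2% of control cells had at least 2 UMIs of the G2 and M phase genes (189 of 273, interval 63.4 to 74.7), against 54.9% of GC cells (295 of 537, interval 50.6 to 59.2). Without mixed barcodes the shares were 71.5% and 61.3%. At least 2 S phase UMIs were found in 24.9% of control and 8.2% of GC cells, and in 26.9% and 9.1% without mixed barcodes. In barcodes under 10% hemoglobin the G2 and M share was 25.6% and 25.2% and the S phase share 8.06% and 6.34%. Among them, barcodes with UMIs of at least 3 of 8 erythroid genes (49 in control and 34 in GC) had G2 and M shares of 71.4% and 85.3% and S phase shares of 75.5% and 79.4%. Such shares come from RNA counts and were not read as a measure of dividing cells.

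The GC cells lay more in the highest bin, so the shares were also compared within bins. Without mixed barcodes, 65.9% of control cells at 25 to 50% hemoglobin had 2 S phase UMIs (29 of 44, interval 50.1 to 79.5), against 40.0% of GC cells (16 of 40, interval 24.9 to 56.7). At 10 to 25% the shares were 78.9% (62.7 to 90.4) and 53.1% (34.7 to 70.9), at 50 to 75% they were 13.5% (5.59 to 25.8) and 4.17% (0.868 to 11.7), and at 75% and over 0.870% and 1.89%. Without mixed barcodes these intervals overlapped in each bin. With them, the S phase shares at 25 to 50% were 51.8% (38.0 to 65.3) and 21.1% (12.5 to 31.9). At 10 to 25% they were then 67.4% (51.98 to 80.5) and 37.3% (24.1 to 51.92), and the intervals did not overlap in either bin. They cover counting error over the cells of 1 library per condition, so whether they overlap is not a test between conditions. The G2 and M share, from the lowest bin to the highest, was, without mixed barcodes, 89.5%, 95.5%, 57.7% and 62.6% in control and 84.4%, 82.5%, 66.7% and 55.0% in GC. It was thus lower in GC in 3 bins and higher at 50 to 75%, with overlapping intervals. With mixed barcodes it was 83.9% (71.7 to 92.4) and 47.4% (35.8 to 59.2) at 25 to 50%, where the intervals did not overlap, and 56.4% and 56.0% at 50 to 75%.

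GC and control cells were next compared gene by gene, as the log2 ratio of GC over control CPM with 5 CPM added to both, for the 4643 genes with at least 50 UMIs. A gene counted as higher or lower from a 2-fold ratio, and 277 genes (5.97%) were higher and 401 (8.64%) lower in GC. Without mixed barcodes 93 of 3448 genes were higher (2.7%) and 191 lower (5.54%). The median of all genes was −0.24 in both fits, and lists are read against it. Centring on it turned the split to 502 higher and 180 lower, and CPM over all UMIs, globins included, gave 69 and 895.

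S phase genes were lower in GC. Of 23 tested, 19 were at least 2-fold lower and none higher, with a median log2 ratio of −1.30, and without mixed barcodes 13 were lower with a median of −1.02. Mcm7, a subunit of the replicative helicase, went from 520 UMIs in control to 200 in GC, a log2 ratio of −1.67 (ratio 0.26 to 0.363). Pcna went from 706 to 354 UMIs (−1.30, and −0.96 without mixed barcodes). Of 24 G2 and M phase genes, 9 were lower and none higher (median −0.89), but without mixed barcodes none was 2-fold lower (median −0.48). Mki67, the Ki-67 gene, had 2372 and 1353 UMIs, a log2 ratio of −1.13, and −0.65 without mixed barcodes. Within unmixed cells of 10 to 25% and 25 to 50% hemoglobin the S phase medians were −0.41 and −0.75, where all genes tested had −0.04 and −0.09.

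Among early progenitor genes 1 of 4 tested was 2-fold lower. This was Car1, with 618 UMIs in control and 227 in GC (log2 ratio −1.74, −1.27 without mixed barcodes). It was among the 10 lowest genes of the comparison, with Tcf19 (−2.02), Tac2 (−1.96), Ccne2 (−1.93), Tmem230 (−1.89), Cdt1 (−1.86), Hist1h2be (−1.85), Cenpk, Uhrf1 and Hist1h4h (each −1.76). Ccne2, Cdt1 and Uhrf1 are genes of DNA replication, and Tac2 encodes a tachykinin.

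The heme, membrane, transcription factor and iron lists had medians below that of all genes. Without mixed barcodes the heme median stayed slightly below it, and those of the membrane, transcription factor and iron lists lay above it. Of 12 heme genes 3 were lower, namely Alad, Abcb10 and Tmem14c (list median −0.70), and without mixed barcodes none was lower and Alas2 was higher (median −0.27). None of the 24 membrane genes passed 2-fold (median −0.58), and without mixed barcodes only Epb41 did, at 1.06 (median −0.11). Of 15 transcription factors 3 were lower and 1 higher (median −0.48), the lower ones Gata1, Klf1 and Gfi1b and the higher one the myeloid factor Spi1. Without mixed barcodes Gfi1b alone stayed past 2-fold (−1.08, list median −0.13). Of 15 iron genes, Steap3, an endosomal iron reductase, was lower (−1.65) and Fbxl5, an iron-sensing ubiquitin ligase, higher (2.13), with a list median of −0.34. Without mixed barcodes both held, at −1.31 and 1.53, and Ncoa4, a ferritin receptor, was higher too (1.06, list median −0.21 over 14 genes). Fbxl5 had 49 UMIs in control and 290 in GC, and 21 and 62 without mixed barcodes. Barcodes under 10% hemoglobin held 5223 and 10074 of its UMIs, and which cells made it was not tested. Of 11 antioxidant genes Gclc, for glutathione synthesis, was lower (−1.43, and −1.05 without mixed barcodes, where the catalase gene Cat was higher at 1.31). Their median was −0.08 but 0.15 without mixed barcodes, and its sign turned under 10 of 21 alternatives.

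Terminal maturation genes had a median of 0.26 over 27 genes tested, with 1 lower (Hemgn, −1.31) and none higher. Without mixed barcodes the median was 0.57, and none was lower, Hemgn included. Then 6 were higher, among them Bpgm (1.42), Ube2l6 (1.15), Mkrn1 (1.07), Rnf10 (1.06) and Gabarapl2 (1.05). The sign of this median turned under 5 of 21 alternatives, among them equal weights for the bins of hemoglobin share and CPM over all UMIs. Within unmixed bins from low to high hemoglobin it was −0.14, 0.45, −0.31 and 0.04. Bpgm itself had 3248 UMIs in control and 7882 in GC, and Alas2 had 4000 and 7581 (0.60, and 1.02 without mixed barcodes).

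Glucocorticoid response genes were higher in GC, 6 of 17 tested by 2-fold and none lower (median 0.82). Tsc22d3, or Gilz, a direct target of the glucocorticoid receptor, had 29 UMIs in control and 183 in GC, a log2 ratio of 2.14 (ratio 3.4 to 7.75). Mt1, a metallothionein, had 37 and 235 UMIs (2.19, ratio 3.58 to 7.39), and Fkbp5, a receptor co-chaperone, 12 and 55 UMIs (1.51). Zfp36l1, an mRNA decay factor, and Mt2 were also past 2-fold, at 1.38 and 1.41. The remaining one, Cited2, was at 1.12 but at −0.20 without mixed barcodes. At 75% and over the unmixed sum of the list was 547 CPM in control and 553 CPM in GC. The 1 gene tested there, Txnip, was lower in GC (28 and 25 UMIs, −1.24). The others had too few UMIs to be tested, for example Tsc22d3 (2 and 16), Mt1 (3 and 16) and Klf9 (3 and 2). The sums therefore do not describe the genes singly.

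Without mixed barcodes 5 of 13 response genes were higher (median 0.34). They were Tsc22d3 (17 and 76 UMIs, 2.05), Mt1 (28 and 151 UMIs, 2.41), Mt2 (1.90), Zfp36l1 (1.38) and the clock gene Per1 (26 and 61 UMIs, 1.24). Dusp1, a phosphatase also in the list, was at 0.10 with and −0.23 without them. Barcodes under 10% hemoglobin had 81 CPM of Tsc22d3 in control and 181 CPM in GC, and 124 and 276 CPM of Mt1. The hemoglobin-rich cells had 27.1 and 137 CPM of Tsc22d3, below those levels, and the part of RNA from the other barcodes in them was not tested.

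Glycolysis genes had a median of 0.62 over 12 tested and 1 was past 2-fold, Gpi1 (178 and 610 UMIs, 1.43). Without mixed barcodes the median was also 0.62, over 10 genes. The erythropoietin signal list had 6 genes tested and 2 higher, Socs3 (1.52) and the kinase gene Lyn (1.05), with a median of 0.28. Without mixed barcodes neither had enough UMIs, and Bcl2l1 was the 1 higher gene of 4 (1.16, median −0.13). Stress response and heat shock genes had none of 9 past 2-fold (median −0.37, and 0.03 without mixed barcodes).

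The highest ratios belonged to genes of other blood cells. Among the 10 highest, Ccl5 (4 and 411 UMIs, 5.16) and Gzma (1 and 216 UMIs, 4.81) are genes of T and NK cells, and Prss34 (5 and 215 UMIs, 4.10) and Mcpt8 (3.17) are basophil proteases. Most of their GC UMIs came from 4 barcodes for each gene, 84.7% for Ccl5, 99.5% for Gzma, 87.4% for Prss34 and 94.7% for Mcpt8. The 10 also held Stfa1 (4.47), Cstdc5 (2.90), Chil3 (2.83), Mmp8 (2.75), Crispld2 (2.72) and AW112010 (2.68). Of the cell type lists, 7 of 14 neutrophil markers were higher (median 1.03), and 2 of 13 without mixed barcodes (median 0.40). Likewise 1 of 5 monocyte markers (median 0.50), 2 of 2 T and NK markers and 3 of 3 mast cell and basophil markers were higher, and 2 of 2 B cell markers were lower. Without mixed barcodes none of 4 monocyte markers was higher (median −0.25). Only 1 T and NK marker could then be tested, and it was higher, and no mast cell, basophil or B cell marker had enough UMIs.

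Chil3, a secreted chitinase-like protein of neutrophils and macrophages, was spread wider. It had 730 UMIs in control and 6533 in GC (2.83, ratio 6.63 to 7.74), and its top 4 GC barcodes held 31.1% of the GC UMIs. Without mixed barcodes it had 94 UMIs in 79 of 278 control cells and 983 UMIs in 324 of 532 GC cells (3.47). Barcodes under 10% hemoglobin had 2199 CPM of Chil3 in control and 8573 CPM in GC. It was thus higher in GC with and without the mixed barcodes, and which cells made it was not tested.

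**Figure D3:**
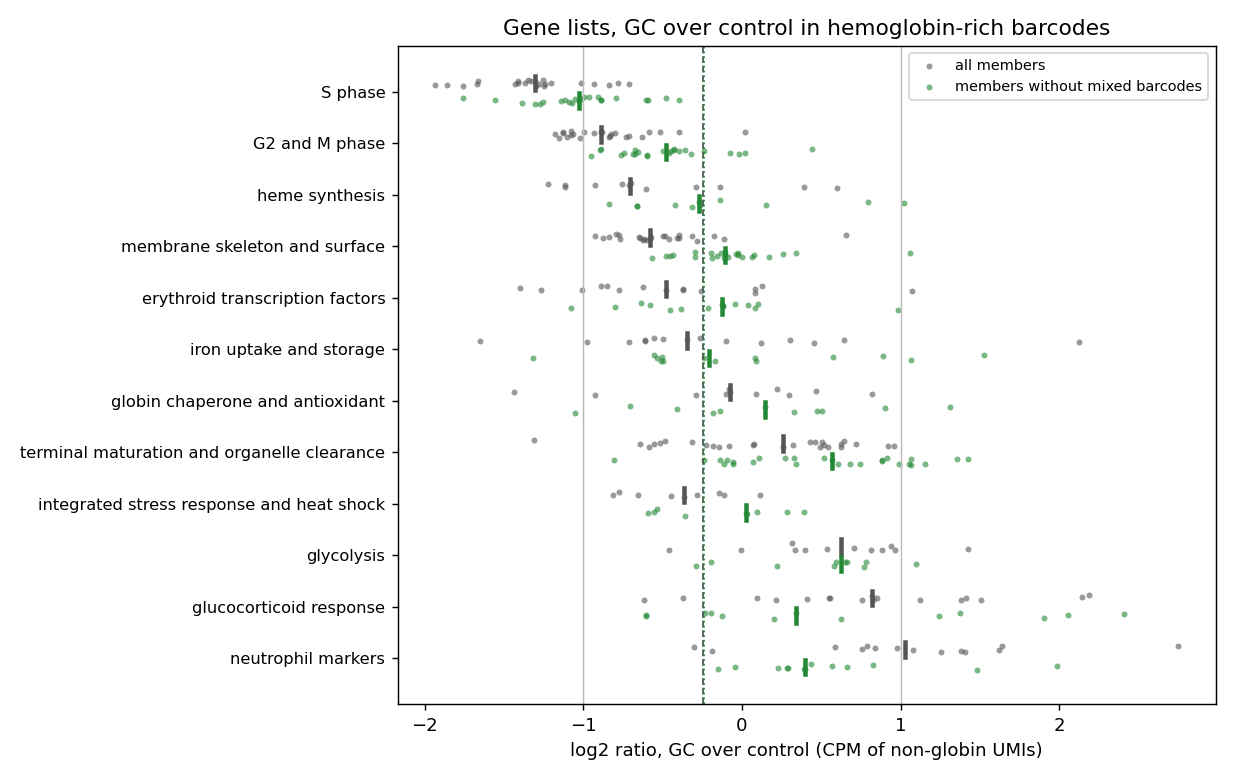
Log2 ratio of GC over control (x axis, CPM of non-globin UMIs) for each gene tested in 12 gene lists, in all hemoglobin-rich cells (grey) and without mixed barcodes (green), with a vertical tick at each list's median. Grey lines mark 2-fold and the dashed and dotted lines mark the median of all genes, −0.24 in both, and S phase genes lie left of it while glucocorticoid response genes lie mostly right of it.

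The cells of at least 75% hemoglobin, 139 in control and 383 in GC, were compared apart, since only 1 barcode in each library was mixed among them. Neutrophil markers still exceeded 2% of non-globin UMIs in 73 of the control cells (52.5%) and 206 of the GC cells (53.8%). These shares were larger than in any lower bin. Of 711 genes tested, 47 were higher (6.61%) and 97 lower (13.6%) in GC, with a median of all genes near 0. Malat1 was the most abundant of the lower genes, with 31743 CPM in control and 8903 CPM in GC, a log2 ratio of −1.83 (ratio 0.267 to 0.295). On GRCm38 it lies on the minus strand at chr19:5795690-5802672.

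Several other genes were lower with it. Abcb10, a mitochondrial transporter of the heme pathway, was at −2.01, Cldn13, an erythroid claudin, at −1.84, and Pim1, a kinase induced by erythropoietin, went from 282 to 178 UMIs (−1.77). The transcription factor genes Sox6 (−1.36), Nfe2 (−1.16) and Foxo3 (−1.12) were lower, 3 of the 4 tested in that list. The blood group gene Kel (−1.33), the autophagy kinase gene Ulk1 (−1.33), Ppox (−1.26) and Ermap (−1.08) were lower too, and Xpo7 (−0.88) came close to 2-fold. Among the higher genes were Chil3 (2.37), Prdx1, a peroxiredoxin (1.75), Mmp8 (1.28) and Gapdh (1.01). Alas2 (0.26) and Bpgm (0.33) were within 2-fold. After thinning, every cell of this bin deep enough to be thinned had a UMI of each.

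**Figure D4:**
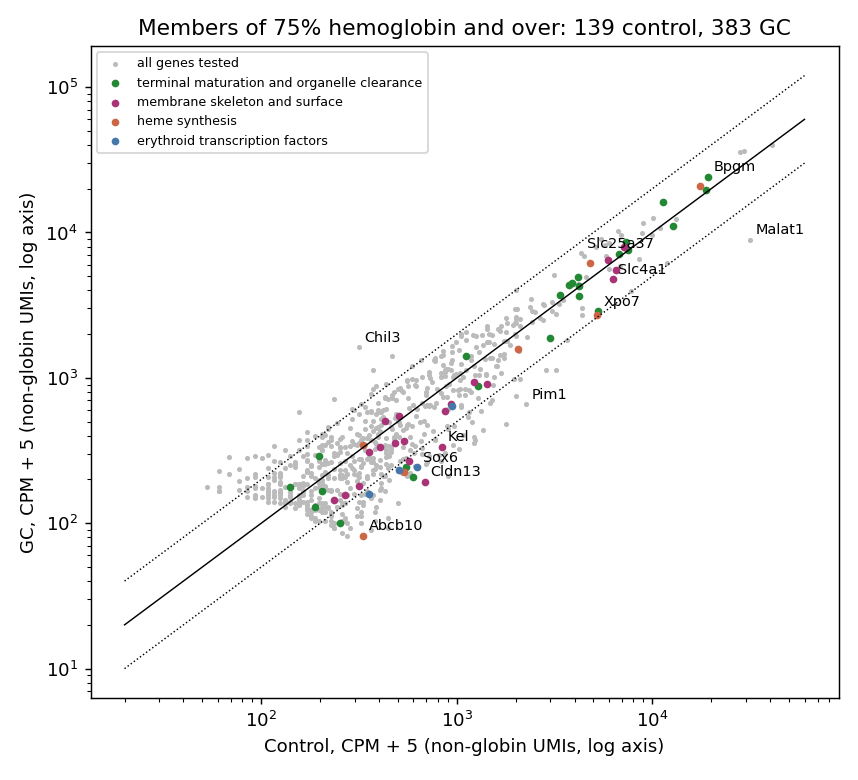
CPM + 5 of non-globin UMIs in control (x axis, log scale) and GC (y axis, log scale) for 711 genes in cells of at least 75% hemoglobin, with 4 gene lists in color. The solid line marks equal levels and dotted lines 2-fold, and Malat1, Pim1, Cldn13 and Abcb10 lie below them, with Chil3 above.

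Cells of this bin fell into those with Malat1 and those nearly without it. Divided at 20 Malat1 UMIs per 1000 non-globin UMIs, a limit chosen after the data were seen, 42 of 139 control cells were over it (30.2%, interval 22.7 to 38.6), against 33 of 383 GC cells (8.62%, interval 6.01 to 11.9). Only 5 control and 7 GC cells lay between 10 and 30. Of those at or under 20, 46 of 97 control and 223 of 350 GC cells had no Malat1 UMI at all. The Malat1-rich cells had a median hemoglobin share of 79.6% in control and 78.4% in GC, with 474.5 and 481 genes. The Malat1-poor cells had 90.7% and 89.98% hemoglobin, with 251 and 254 genes. Neutrophil marker UMIs were a median of 1.40% and 1.19% of non-globin UMIs in the Malat1-rich cells and 2.51% and 2.18% in the Malat1-poor cells.

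The genes given here differed between the 2 kinds of cell. Kel had 1670 CPM in Malat1-rich and 105 CPM in Malat1-poor control cells, and 1715 and 82 CPM in GC. Sox6 had 1176 and 135 CPM in control and 991 and 104 CPM in GC, and Pim1 had 4550 and 225 CPM in control and 2996 and 234 CPM in GC. Xpo7 had 9237 and 1826 CPM in control and 9785 and 1621 CPM in GC. In the other direction, Bpgm had 11282 CPM in Malat1-rich and 26318 CPM in Malat1-poor control cells, and 12781 and 26302 CPM in GC. Alas2 had 10566 and 23459 CPM in control and 9954 and 22795 CPM in GC. Gpx1 had 20382 and 34897 CPM in control and 22276 and 38089 CPM in GC. Not every gene went the same way in both libraries, since Slc25a37 had 5164 and 3593 CPM in control but 6910 and 7240 CPM in GC. What set the Malat1 level of a barcode was not tested.

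**Figure D5:**
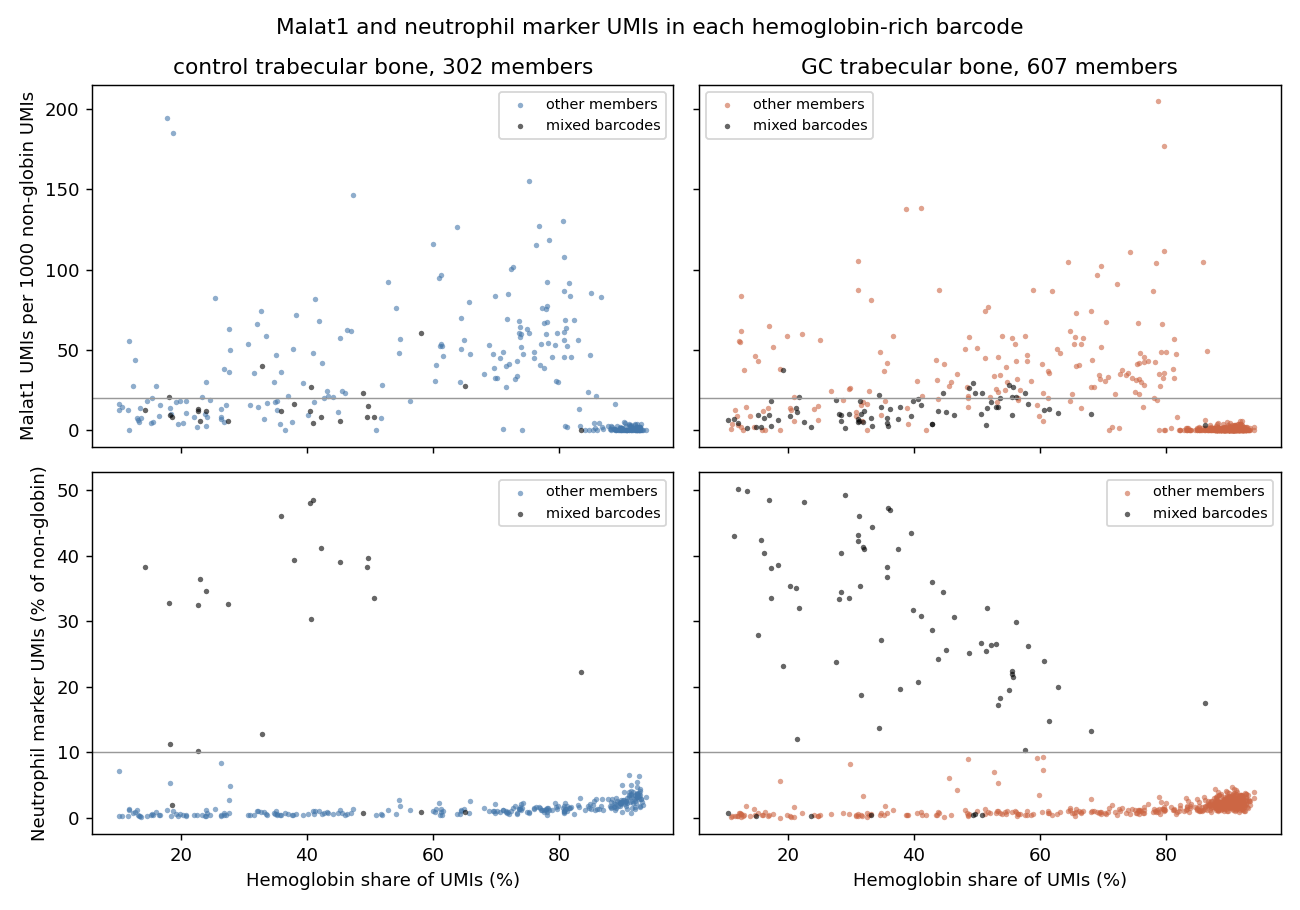
Malat1 UMIs per 1000 non-globin UMIs (top) and neutrophil marker UMIs as a percent of non-globin UMIs (bottom) against hemoglobin share (x axis, percent) in each of 302 control (left) and 607 GC (right) cells, with mixed barcodes in black and lines at 20 and at 10%. Malat1 drops to near 0 at the highest hemoglobin shares in both libraries, and mixed barcodes lie mostly at middle and low shares.

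GC and control were also compared within the Malat1-rich and the Malat1-poor cells apart. Among Malat1-poor cells 28 of 526 genes were higher (5.32%) and 8 lower (1.52%), and among Malat1-rich cells 5 of 333 were higher (1.5%) and 6 lower (1.80%). In Malat1-poor cells Alas2 was at −0.04 and Bpgm at 0.00. Slc25a37 was higher in the Malat1-poor GC cells, with 240 UMIs in control and 1670 in GC (1.01, ratio 1.76 to 2.32). In cells of at least 85% hemoglobin, 93 in control and 326 in GC, 26 of 493 genes were higher (5.27%) and 14 lower (2.84%), and Malat1 was at −1.44.

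Among interferon-stimulated genes, Rsad2, or viperin, an antiviral enzyme, followed hemoglobin share and was lower in GC in each bin. Without mixed barcodes it had 96, 489, 3303 and 4395 CPM in control and 42, 291, 1538 and 2660 CPM in GC. At 75% and over it had 546 UMIs in control and 735 in GC (−0.69, ratio 0.555 to 0.695), within 2-fold. Thinned to 500 UMIs, 74.1% of control cells of this bin (86 of 116, interval 65.2 to 81.8) and 52.0% of GC cells (166 of 319, interval 46.4 to 57.6) had a UMI of Rsad2, against 1.61% and 0.718% of barcodes under 10% hemoglobin. In Malat1-rich cells its log2 ratio was −0.92 and in Malat1-poor cells −0.39. Isg15, a ubiquitin-like protein, had 1248 CPM in control and 937 CPM in GC in unmixed cells of the highest bin. Over all bins together Rsad2 was at −0.37, and at 0.08 without mixed barcodes, where more of the GC cells were in the bins with most Rsad2. Of 6 genes tested in the list, Irf7, a regulator of the interferon response, was the 1 past 2-fold, with 54 UMIs in control and 28 in GC (−1.10), and the list median was −0.25 with and 0.09 without mixed barcodes.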

How the data were processed

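Single-cell RNA was measured in 4 libraries, and the 2 trabecular ones were used, with callus for comparison. The deposited matrices held whole UMI counts that the authors made with Cell Ranger on build mm10; the matrix headers name version 4 and the submitters' processing notes 5.0.1, beside Seurat 3.2.0, and no normalization had been applied. Over 32285 genes, 3 matrices listed all 6794880 possible barcodes, and the GC callus matrix listed 7762, each with at least 500 UMIs. The filters applied here were at least 500 UMIs, at least 200 genes and at most 10% mitochondrial UMIs, then at least 10% hemoglobin UMIs.

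Levels were summed per library as CPM over UMIs of all genes but Hba-a1, Hba-a2, Hbb-bs and Hbb-bt. Ratios used a pseudocount of 5 CPM and genes with at least 50 UMIs over both libraries. Intervals were exact 95% ones (Clopper-Pearson, Poisson, or conditional for a pair of counts) and cover counting error only. With 1 library per condition no test between conditions was possible. Detection shares used cells thinned to 500 non-globin UMIs. In counts simulated for this comparison over 4658 genes, ratios past 2-fold were recovered for 100% of genes changed 4-fold and for 36% of those raised 2-fold.

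The cells and all 24 lists, which named 318 genes of which 317 were in the files, were chosen with earlier results of these data known. Named genes were those of the lists, the 10 highest and 10 lowest ratios among genes of at least 50 CPM in 1 library, and the 15 genes with most UMIs; a few genes of the lists are not reported singly here. Doublets were not removed for the values reported; scores from simulated doublets, tried as an alternative, removed 127 of 3977 control and 183 of 4788 GC barcodes, among them 20 and 47 hemoglobin-rich cells. A list of 8 erythroid genes picked 49 control and 34 GC barcodes under 10% hemoglobin (at least 3 detected), used only for comparison of cell cycle shares and of Alas2 and Slc4a1 detection. The limits for mixed barcodes, the limit of 85% hemoglobin and the Malat1 limit were chosen after seeing the data. Alternatives covered the filters, the hemoglobin limit, doublets, other cell types, thinning, the pseudocount, the gene minimum, the denominator and equal bin weights. Promoters came from the RefSeq table of GRCm38.p6, gene positions from GENCODE on GRCm38. The scripts ran on Python 3.11.15 with pandas 2.3.3, numpy 2.4.6, scikit-learn 1.9.0 (doublet scores), scipy 1.17.1 and, for plots, matplotlib 3.10.9.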

Additional observations from a re-analysis of the deposited data

Results flagged for a closer look

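The median hemoglobin share differed between GC and control in opposite directions in the 2 tissues. In trabecular bone it was 14.1 percentage points higher in GC (72.9 and 87.0%), and in fracture callus the GC minus control difference was −11.1 points (43.9 and 32.9%, over 55 and 70 cells). The difference between the tissues was not tested.

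Barcodes outside the comparisons also held hemoglobin. In GC trabecular bone 694 barcodes met every limit except that of 200 genes, against 183 in control. They had a median of 120 genes in GC and 125 in control, and hemoglobin shares of 93.3% and 92.3%. Alas2 stood at 33267 CPM in GC and 31899 CPM in control, Bpgm at 26232 and 25656 CPM, and Malat1 at 1201 and 2413 CPM.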

How the results depend on the processing

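Of 118 alternatives for the main shares, medians and counts, 65 were classed as close to the reported value and 53 as moved. The limit differed between kinds of value. With a 5% hemoglobin threshold, 294 lower genes counted as close to the reported 401. Without mixed barcodes, a GC median of 88.16% counted as moved from 87.0%. These 2 totals are thus a rough guide, and the moved values are given below. The share of hemoglobin-rich cells moved to 11.65% in control and 23.73% in GC with no gene minimum, 3.97% and 4.51% with 500 genes, 4.90% and 9.92% at 50% hemoglobin, and 5.00% and 6.70% without cells over 2% neutrophil UMIs. In GC it was also 15.37% among barcodes over the cell cutoff, 14.52% relative to barcodes under 10% hemoglobin and 11.11% without mixed barcodes. The median hemoglobin share moved to 86.94% and 90.86% with no gene minimum, 38.19% and 44.54% with 500 genes, 83.55% and 88.75% at 50% hemoglobin, 79.41% and 88.72% over the cell cutoff, and in GC to 88.16% without mixed barcodes. The share with G2 and M phase UMIs moved to 74.83% and 50.26% with 500 genes, 46.36% and 34.60% thinned to 250, 86.29% and 74.12% thinned to 1000, 85.71% and 79.89% with 1 UMI asked for, and 85.43% and 77.1% not thinned. In control it was 60.82% at 50% hemoglobin, and in GC 62.08% without cells over 2% neutrophil UMIs and 61.26% without mixed barcodes. GC and control kept their order in each of these.

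Genes higher and lower in GC numbered 150 and 172 with a pseudocount of 20 CPM, 115 and 124 with a minimum of 200 UMIs, 69 and 895 with CPM over all UMIs, 502 and 180 centred on the median gene, 505 and 252 with equal weights for the bins, 36 and 54 thinned to 500, 70 and 94 without cells over 2% neutrophil UMIs, 93 and 191 without mixed barcodes, and 169 and 61 with equal bin weights as well. Lower genes numbered 604 with a minimum of 20 UMIs and 115 at 50% hemoglobin. The balance turned to more higher than lower genes with equal bin weights, with or without mixed barcodes, when centred, at 50% hemoglobin (187 higher), at 5% (298 and 294), with 500 genes (387 and 321) and with doublets removed (324 and 295). Of 1219 alternatives for 65 single genes, 3 turned the sign of the ratio: Top2a at 0.47 with equal bin weights and no mixed barcodes, Top2a at 0.43 at 50% hemoglobin, and Cited2 at −0.20 without mixed barcodes. These 65 were the genes of highest and lowest ratio and list genes already past 2-fold, so a change of sign was unlikely from the start. Genes with smaller ratios were not in this tally, and Dusp1 and Rsad2, for example, turned sign without mixed barcodes. Of 256 alternatives for list medians, 21 turned the sign: 10 for the antioxidant list, 5 for terminal maturation and 2 each for the iron, Epo and stress lists. This tally did not include the Epo median without mixed barcodes, which was −0.13 over 4 genes. The causes were not tested. The medians of the S phase, G2 and M phase, heme, membrane, transcription factor, glucocorticoid response, glycolysis and interferon lists kept their sign in every alternative that gave a value, except that the interferon median was 0.09, over 4 genes, without mixed barcodes. All these signs are taken against 0 and not against the median of all genes. Without mixed barcodes that median was −0.24, and the membrane and transcription factor medians, −0.11 and −0.13, lay above it. Subtraction of the profile of barcodes of 10 to 100 UMIs gave no value, because it asked for 2830320 UMIs where the GC cells held 1338999. No paired analysis was possible because each condition was 1 library. Counting error limits genes of few UMIs, and the absence of replicates limits every comparison.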

Other observations

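Some signals of other cells passed the limits for mixed barcodes. The genes named here were chosen after their values were seen. Cd74, the invariant chain of antigen-presenting cells, had 344 UMIs in 11 GC cells that were not called mixed, and a single barcode held 332 of them, whereas control had 4 UMIs in 4 cells. Igkc, the immunoglobulin kappa constant gene, was spread over many cells, with 154 UMIs in 103 of 278 control cells and 538 UMIs in 308 of 532 GC cells, and no cell held more than 5 of these UMIs in control or 6 in GC.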
